A study of Mus musculus with 9 samples.

Results

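The cytosolic ribosomal protein genes were followed in the liver of mice on a normal or a high fat diet, with and without B-LGND2. Members were the protein-coding genes whose symbol is Rpl or Rps with a number and at most a short suffix, together with Rplp0, Rplp1, Rplp2 and Rpsa. Pseudogenes and the S6 kinases were left out. The rule found 83 of the 45513 genes in the deposited count table, 51 of the large subunit and 32 of the small subunit, and it used no measured value. It also took in paralogs with a name of their own, such as Rpl7l1 and Rps27l.

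All 9 libraries came from the liver of C57BL/6 mice that were fed and treated for 9 weeks, with 3 mice per group. The first group received a normal diet and vehicle. The second received a high fat diet and vehicle, and the third a high fat diet and B-LGND2, by the series title a ligand of estrogen receptor beta. The labels name no dose. RNA was enriched for poly(A) and sequenced with an Ion Torrent Proton. The libraries held 5778978 to 10322972 counts each. Hepatocyte markers summed to 62741 to 99460 CPM (counts per 1000000 counts, on scaled library sizes) in every library, and none of the 8 was at 0. In bulk liver, fewer cells of a type and less RNA per cell cannot be told apart.

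Ribosomal proteins assemble with ribosomal RNA into the large and the small ribosomal subunit, which translate all cytosolic mRNA, a heavy load in a liver that secretes most plasma proteins. Their mRNAs are short, abundant and spliced, start with a run of pyrimidines, and are translated under the control of mTORC1, a kinase that responds to nutrients and insulin. In mammals most of these genes have left processed pseudogenes behind, copies of the spliced mRNA inserted elsewhere in the genome, so that the sequence across an exon junction of the gene stands unbroken in its copies.

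The sequences below show how little separates 4 ribosomal protein genes from the copy that drew the most counts. Each is 80 bases of coding sequence centred on an exon junction of the gene, and the same stretch of the copy, read 5′ to 3′ from the GENCODE transcripts of GRCm38. Rpl4 lies at chr9:64173375-64178666 on the plus strand, and the junction joins exons 2 and 3. Its copy Gm5835 lies at chr1:143093347-143094616 on the minus strand, and capitals mark the 2 bases at which they differ.
Rpl4: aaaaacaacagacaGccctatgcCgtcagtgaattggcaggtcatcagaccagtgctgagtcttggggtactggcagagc
Gm5835: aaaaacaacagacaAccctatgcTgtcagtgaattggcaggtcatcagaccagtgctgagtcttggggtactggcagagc
Rpl13a lies at chr7:45125558-45128761 on the minus strand. Across its exons 3 and 4 the stretch is identical in Gm11478, at chr11:86630428-86631026 on the minus strand.
Rpl13a and Gm11478: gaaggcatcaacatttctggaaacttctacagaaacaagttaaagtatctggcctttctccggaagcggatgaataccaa
Rpl10a lies at chr17:28328471-28331033 on the plus strand. Across its exons 2 and 3 the stretch is identical in Rpl10a-ps1, at chr1:64993951-64994604 on the minus strand.
Rpl10a and Rpl10a-ps1: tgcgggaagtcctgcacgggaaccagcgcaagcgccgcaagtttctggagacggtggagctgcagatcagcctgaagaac
Rps16 lies at chr7:28350652-28353155 on the plus strand. Across its exons 1 and 2 the stretch is identical in Rps16-ps2, at chr5:129128077-129128517 on the minus strand.
Rps16 and Rps16-ps2: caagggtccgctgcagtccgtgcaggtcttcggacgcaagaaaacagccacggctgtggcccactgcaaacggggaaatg

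Most counts of the members and their copies together were filed under the copies. Copies were taken as other genes, with a pseudogene biotype or a ribosomal protein name, that share at least 5% of the 50-base windows of a member's mRNA. There were 487 such copies for 73 members, and 482 of them carry a pseudogene biotype. Over the 9 libraries the 83 members drew 110660 counts and their copies 308327, which is 73.6% of the sum. For 52 members the copies held more counts than the gene, and for 51 of these the most counted copy alone did. The counts were unevenly spread, since 156 copies had no count at all and 39 had over 1000.

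Rpl4, a large subunit protein, had 18757 counts against 39591 in Gm5835, which matches its mRNA at 97.3% of the aligned bases. Rpl13a had 3336 against 29584 in Gm11478, at 98.7% identity. Rpl10a had 616 against 22175 in Rpl10a-ps1, and the small subunit gene Rps16 had 129 against 15419 in Rps16-ps2, both at 100% identity over the aligned stretch. Thus the genes of some abundant proteins were close to empty in the table. Rps6, the substrate of the S6 kinases, had 68 counts in all against 9120 in Rps6-ps4. Rps27 had 59 against 11148 in Rps27rt, and Rpl37 had 51 against 13421 in Rpl37rt. Over the 71 members whose most counted copy could be aligned, the median identity was 99.5%, the lowest 94.5%, and 19 copies were identical. A median of 50.6% of the 50-base windows of a member's mRNA occurred in no other transcript. A read of 50 bases from the remaining windows could not be assigned by sequence alone. Rpl4 shared 16.5% of its windows with Gm5835 and Rpl13a 19.1% with Gm11478, while Rpl10a shared 77.5% with Rpl10a-ps1. The split between a member and its copies can reflect how the aligner and the counter placed reads, or transcripts of the copies themselves, and neither was tested. Each member is therefore described both alone, as deposited, and as its sum with its copies, a step chosen after the counts had been seen.

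**Figure D1:**
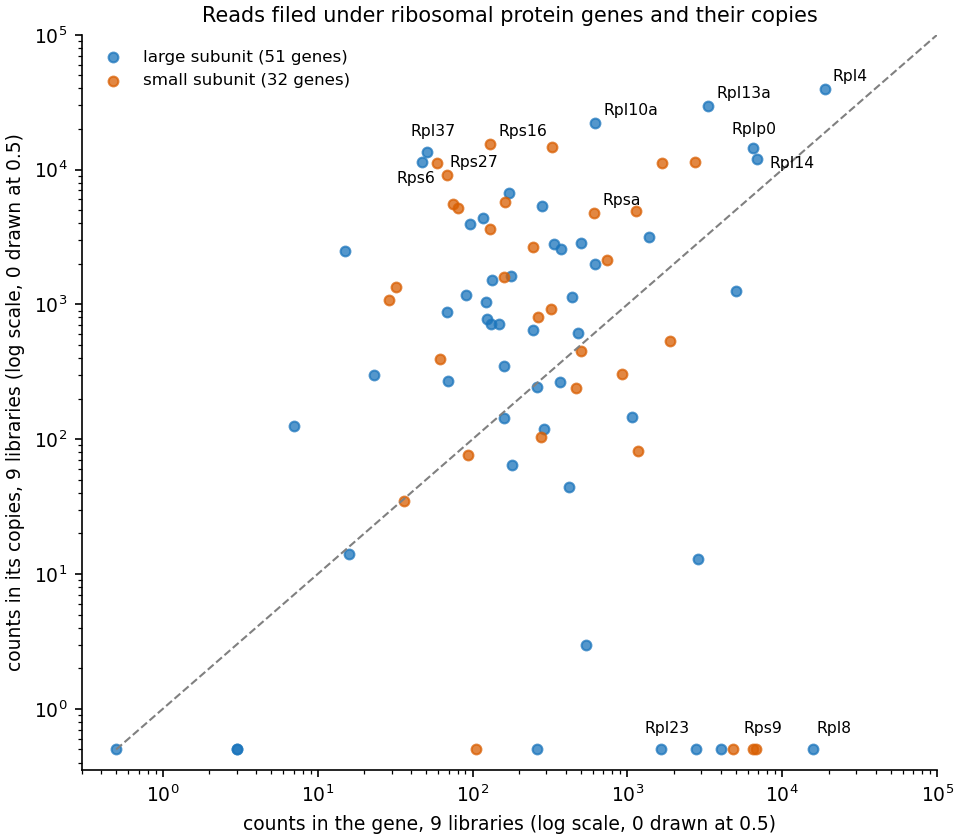
Counts of each member (x axis) against the counts of its copies (y axis), summed over 9 libraries, both on a log scale with 0 drawn at 0.5; each point is 1 member and the line marks equality. The 52 members above the line have more counts in their copies, with Rpl37, Rps27 and Rps6 far above it.

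Levels between genes were compared per kilobase of merged exons. The median member had a level of 1.78 CPM per kilobase, and the highest and lowest members that passed the count filter differed 676-fold. Rpl8 was the highest with 198 ± 75.8 on the normal diet, 159 ± 6.15 on the high fat diet and 205 ± 43.4 with B-LGND2 (SD, n = 3). It was followed by Rpl4, the stalk gene Rplp1, Rps15 and Rpl14, at 149, 93.2, 69.3 and 65.6 CPM per kilobase over all libraries. The lowest were Rpl10l, Rpl3l, Rpl39l, Rpl23a and Rps13. Most of the proteins occur in equal number in a ribosome. These levels do not measure mRNA alone, since the share of the sum that is filed under copies differs from gene to gene. Summed with copies, the median was 15.9 CPM per kilobase, with 11.6 over the large subunit and 21.1 over the small subunit. Of the 83 members, 22 had under 100 counts in all and the 8 most counted held 64.1% of the members' counts.

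Paralogs had few or many counts of their own. Rpl10l, the testis paralog of Rpl10, had no count in any library, which allows up to 3 counts in each. Rpl3l, the striated muscle paralog of Rpl3, had 3 counts, all in B-LGND2 library 1. Rpl39l also had 3, each in a different library. Rpl22l1 had 69 counts against 4020 for its parent Rpl22, but its copy Gm15421 drew more counts than Rpl22l1 itself, while Rpl22 has no copy. Others went the opposite way, with 5010 counts for Rpl7l1 against 501 for Rpl7, and 468 for Rps27l against 59 for Rps27. The copies of both parents held more counts than the parents themselves, among them Rps27rt, which is annotated as protein coding. Rps4x, the X-linked parent of Rps4l, had 266 counts.

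Several library properties moved with the groups, and their part in the results was not tested. Members took 0.195% ± 0.0446 of all counts on the normal diet, 0.149% ± 0.00970 on the high fat diet and 0.185% ± 0.0192 with B-LGND2 (SD, n = 3). Summed with copies the shares were 0.747% ± 0.277, 0.462% ± 0.0402 and 0.760% ± 0.0618. The normal diet libraries spread widely, at 0.490%, 0.710% and 1.04%, while the high fat vehicle libraries lay at 0.430% to 0.507% and the B-LGND2 libraries at 0.692% to 0.812%, so that the last 2 groups did not overlap. The share of counts in rRNA models had the same order, 3.16% to 3.74%, 0.901% to 1.44% and 4.31% to 6.19%, without overlap. Over genes, the deviation of a library from the mean of all libraries correlated with transcript length at −0.45 to 0.22 on the normal diet, 0.28 to 0.35 on the high fat diet and −0.26 to 0.06 with B-LGND2. Members are short, with a median of 1770 bases of merged exons against 4499.5 for the protein-coding genes tested. Normal diet library 1 stood apart with 12.7% of its counts in mitochondrially encoded genes, against 3.69% to 6.12% in the others, and B-LGND2 library 1 with a correlation of 0.50 with GC content. The 12 macrophage and Kupffer cell markers summed to 352 to 600 CPM on the normal diet, 329 to 443 on the high fat diet and 1171 to 1503 with B-LGND2. None was at 0, and 10 of them were called higher with B-LGND2, against 3.07% of all genes tested.

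**Figure D2:**
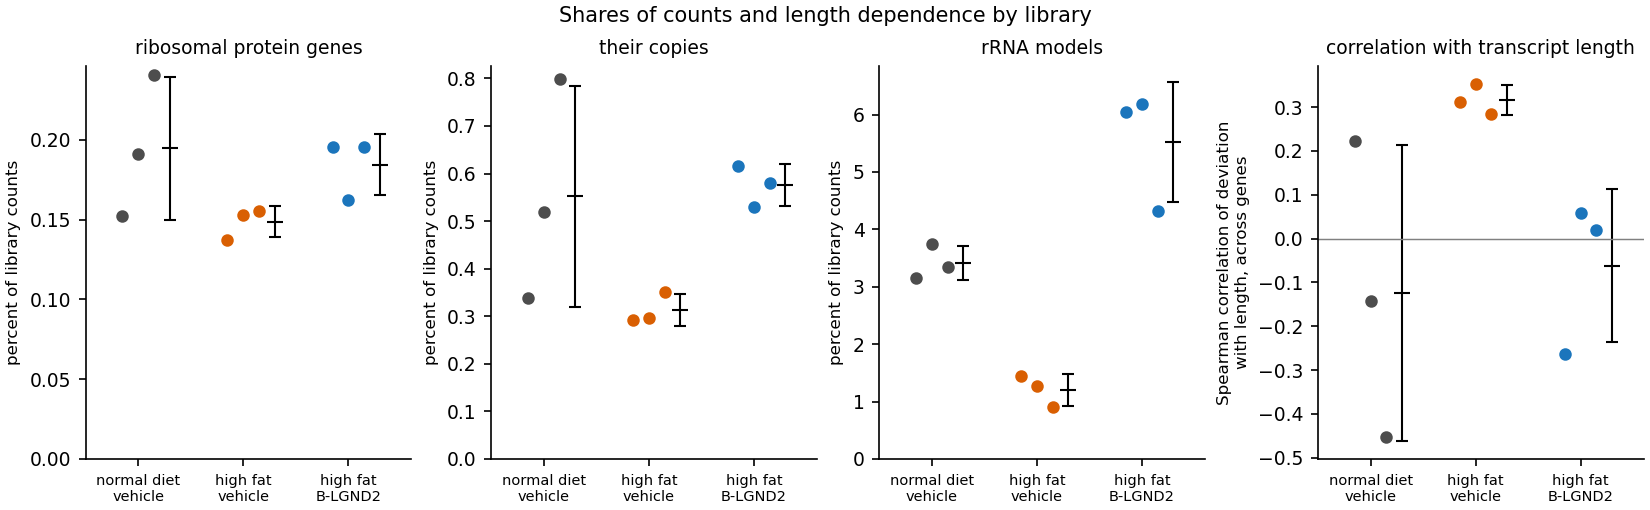
Percent of library counts in members, in their copies and in rRNA models, and the correlation of library deviation with transcript length, for each library (points) with the mean and SD of 3 libraries per group. High fat vehicle libraries sit lowest in rRNA, at 0.901% to 1.44%, and highest in the length correlation, at 0.28 to 0.35, while in members and copies they overlap the normal diet libraries.

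High fat diet against normal diet, both with vehicle, asks what the diet did to the ribosomal protein genes. Alone, 66 members passed the count filter, and the 17 that did not included Rpl10l, Rpl17, Rpl22l1, Rpl23a, Rpl24, Rpl35, Rpl37, Rpl38, Rpl39l, Rpl3l, Rps13, Rps23, Rps27, Rps28, Rps6 and Rps7. By the quasi-likelihood test of edgeR, with Benjamini-Hochberg adjustment over all genes, 1 member fell, Rpl27a, and none rose, where 1.5% of all genes tested were called higher and 1.49% lower. At an unadjusted p under 0.05, 18 members were lower and 0 higher, against 11.8% and 10.6% of all genes. DESeq2 called 7 lower and 0 higher of the 58 members to which it gave an adjusted p, against 4.98% and 3.46% of all such genes. The sign was lower for 45 of 66, with a median log2 fold change of −0.35 against 0.01 over all genes tested. This median was negative in every alternative run, but it was −0.11 without normal diet library 3, −0.09 after a correction for length and GC content and −0.18 with no scaling beyond the library total, where the median of all genes moved to 0.17. It was −0.61 over the members with at least 50 counts in 3 libraries.

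Rpl27a, a large subunit protein, had 125, 193 and 299 counts on the normal diet and 97, 81 and 93 on the high fat diet. The groups did not overlap, here and below by the scaled values, and the normal diet libraries spread more. Its level was 30.9 ± 11 CPM against 13.7 ± 2.02 (SD, n = 3), a log2 fold change of −1.18 (SE 0.29, adjusted p = 0.0382 in that edgeR test). The call was lost without normal diet library 2 or 3, any high fat vehicle library, or B-LGND2 library 3, with adjusted p of 0.0537 to 0.173, and it was also lost with no scaling beyond the library total, with only the 2 groups compared and with a replicate block (0.0781, 0.068 and 0.064 by edgeR). Leaving out normal diet library 1 gave 15 members lower in place of 1, and 8.04% of all genes. The members lowest or highest by log2 fold change did not pass the test. On the lower side stood Rpsa at −1.30 and Rps21 at −1.23 (adjusted p of 0.0661 and 0.141 by edgeR), and on the higher side Rpl10 at 0.67 and Rpl10a at 0.45.

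Summed with copies, 78 members could be tested and 10 of them fell with the high fat diet (12.8%), while none rose. Over all genes in that fit 1.5% were called lower and 1.53% higher. The sign was lower for 74 of 78, the median log2 fold change was −0.85, and 38 members (48.7%) had every high fat vehicle library below every normal diet library, against 14.8% of all genes. At an unadjusted p under 0.05, 51 were lower and 0 higher, against 11.7% and 10.7% of all genes. The medians were alike in the large and the small subunit, at −0.84 and −0.88. Among those that fell were Rpl27a, Rpl14, Rpl26, Rpsa, Rpl13a, Rpl39, Rps24 and Rps10.

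Rpl27a had 347, 544 and 1054 summed counts on the normal diet and 229, 218 and 245 on the high fat diet. These groups stood clear of each other, and the log2 fold change was −1.47 (SE 0.31, adjusted p = 0.0221 by edgeR). Rps24, a small subunit gene that is mutated in some patients with Diamond-Blackfan anaemia, had 323, 577 and 1481 against 200, 196 and 280. Again no libraries overlapped, but normal diet library 3 held most of the counts, and the log2 fold change was −1.79 (SE 0.44, adjusted p = 0.0451 by edgeR). Without normal diet library 3 it was −1.11 (adjusted p = 0.188 by edgeR). The call was also lost without normal diet library 2 or any high fat vehicle library, and with a replicate block, only the 2 groups compared or the length and GC correction (0.0509 to 0.164). Alone, Rps24 had only 8, 17 and 29 counts against 16, 15 and 24, a log2 fold change of 0.02. For Rpl26, Rpl39 and Rps10 the summed log2 fold changes were −1.15, −1.50 and −1.32 (SE 0.26, 0.38 and 0.34, adjusted p = 0.0287, 0.0446 and 0.0474 by edgeR). All 3 calls were lost without normal diet library 3, without any high fat vehicle library, with no scaling and after the length and GC correction, with adjusted p of 0.0513 to 0.246 by edgeR. Without normal diet library 3 the log2 fold change of Rps10 was −0.64.

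How many sums fell depended on single libraries. Without normal diet library 1, 2 or 3, the count of 10 became 46, 3 or 1, and without high fat vehicle library 1, 2 or 3 it became 0, 1 or 0. It was 8, 6 or 8 without a B-LGND2 library. The share of all genes called lower moved in the same order, to 7.98%, 0.499% and 0.349% without a normal diet library, 0.161%, 0.307% and 0.13% without a high fat vehicle library, and 1.28%, 1.16% and 1.25% without a B-LGND2 library. Normal diet library 1 had the lowest summed share of its group and library 3 the highest. The median log2 fold change over these 9 fits ran from −1.14 to −0.45, so its sign held in all of them, and it was −0.57 after the length and GC correction, under which 5 members fell, Rpl14, Rpsa, Rpl27a and Rpl13a among them.

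B-LGND2 against vehicle, both on the high fat diet, asks what the compound did. This comparison shares its high fat vehicle libraries with the diet comparison, so the values of the pair are not independent. Alone, 4 of 66 members rose, Rpl14, Rpsa, Rpl13a and Rpl23, and 1 fell, Rps14, by the same edgeR test. Over all genes tested 3.07% were called higher and 2.56% lower. The sign was higher for 37 of 66 and the median log2 fold change was 0.10, which turned to −0.07 with no scaling beyond the library total, −0.03 with no filter, −0.01 in DESeq2 and −0.07 after the length and GC correction. It was −0.07 without high fat vehicle library 1 and −0.15 without B-LGND2 library 3, and 0.34 at a minimum of 50 counts. With no scaling the median of the members summed with copies was lower as well, at 0.62 against 0.78. That shift was thus not particular to the members alone. The members taken alone thus showed no common direction.

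Rpl14, a large subunit protein at chr9:120571444-120574654 on the plus strand, had 530, 469 and 782 counts on the normal diet, 242, 282 and 372 on the high fat diet and 2198, 768 and 1232 with B-LGND2. The high fat vehicle libraries lay below all others, and B-LGND2 library 1 was the highest. Its level was 89.5 ± 16.4, 44.7 ± 6.3 and 191 ± 71.9 CPM (SD, n = 3), and the log2 fold change with B-LGND2 was 2.09 (SE 0.28, adjusted p = 9.58e-04 by edgeR). The call held in all 19 alternatives run, with adjusted p of 3.56e-13 to 0.00971 and log2 fold changes of 1.30 to 2.38. Summed with its copies, Rpl14 had 1024, 983 and 1225 counts under vehicle and 4238, 2297 and 2233 with B-LGND2, a log2 fold change of 1.30 (SE 0.23, adjusted p = 0.00707 by edgeR), which was lost without high fat vehicle library 2 (0.0525). Its sum was also lower on the high fat than on the normal diet, by a log2 fold change of −1.07 (SE 0.23, adjusted p = 0.0273 by edgeR).

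Rpsa, the small subunit protein also known as the laminin receptor, lies at chr9:120127689-120132369 on the plus strand. It had 26, 31 and 35 counts under vehicle and 129, 73 and 82 with B-LGND2, 4.61 ± 0.299 against 13.1 ± 2.15 CPM. The groups were well apart, and the log2 fold change was 1.50 (SE 0.37, adjusted p = 0.03 by edgeR). Rpl13a, a large subunit protein that also acts as a translational repressor outside the ribosome, had 188, 181 and 225 against 704, 365 and 387 counts, 29.9 ± 2.29 against 66.6 ± 14.1 CPM. Every B-LGND2 library was above every vehicle library, with a log2 fold change of 1.16 (SE 0.29, adjusted p = 0.031 by edgeR). Other gene models overlap 35.4% of its exonic bases, and without a stated strand setting their reads cannot be told apart from its own. Both calls were lost without any high fat vehicle library or without B-LGND2 library 1 or 3, with adjusted p of 0.0615 to 0.138.

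Rpl23 differs from these genes in that it has no copy, so its reads are its own. It is a large subunit protein that can bind Mdm2, and it lies at chr11:97777527-97782437 on the minus strand. It had 162, 148 and 186 counts on the normal diet, 115, 132 and 143 on the high fat diet, and 331, 246 and 190 with B-LGND2. On the CPM scale the groups were 25.2 ± 0.632, 19.6 ± 0.537 and 35.4 ± 3.43 (SD, n = 3). No library of a group overlapped another group, and the log2 fold change with B-LGND2 was 0.85 (SE 0.21, adjusted p = 0.0295 by edgeR), and with the diet −0.36 (adjusted p = 0.331 by edgeR). The B-LGND2 call was lost without any high fat vehicle library or without B-LGND2 library 1, with adjusted p of 0.0819 to 0.134, and with no scaling (0.0898) or a replicate block (0.0514 by edgeR).

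Rps14, a small subunit protein linked to a form of myelodysplastic syndrome, went the opposite way. It had 334, 130 and 389 counts on the normal diet, 177, 230 and 162 on the high fat diet and 84, 87 and 87 with B-LGND2. The B-LGND2 libraries lay below all others, at 12.3 ± 2.41 CPM against 28.8 ± 6.01 under vehicle, a log2 fold change of −1.23 (SE 0.32, adjusted p = 0.037 by edgeR). The call was lost without any single high fat library, vehicle or B-LGND2, with adjusted p of 0.0597 to 0.169, and with a replicate block (0.0589 by edgeR). Its copy Gm6204 had 7364 counts against 1680 for Rps14. Summed, the log2 fold change was 1.01 and did not pass (adjusted p = 0.14 by edgeR). The direction for Rps14 thus turned with the counting of its copies.

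**Figure D3:**
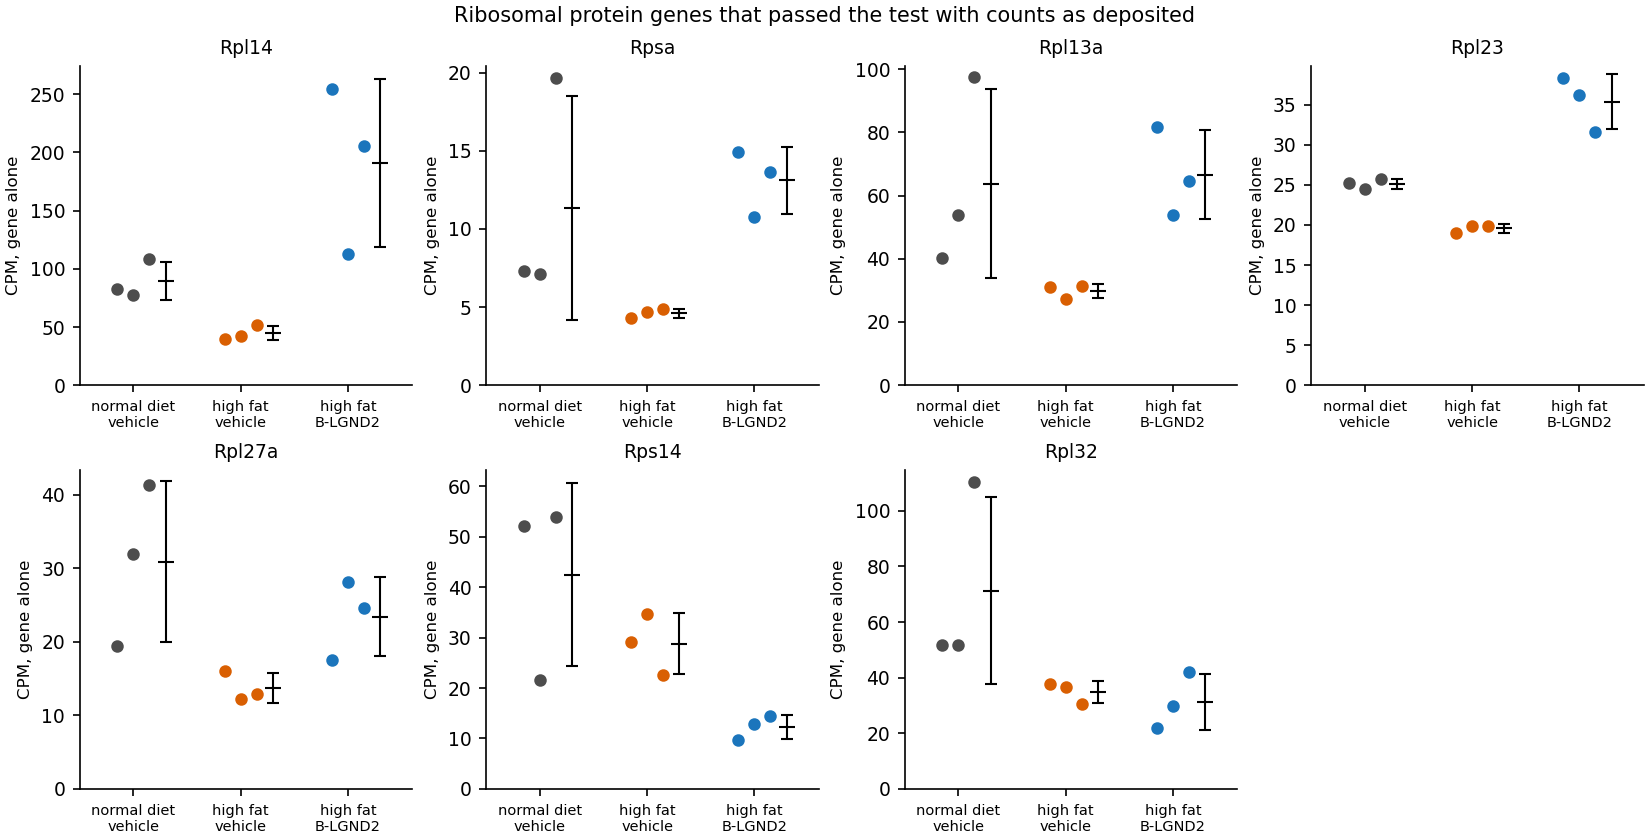
CPM (y axis) of 7 members called alone in any comparison, for each library (points) by group, with the mean and SD of 3 libraries. Rpl14, Rpsa, Rpl13a and Rpl23 are lowest on the high fat diet with vehicle and highest or near highest with B-LGND2, while Rps14 is lowest with B-LGND2.

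Other members at the ends of the range with B-LGND2 did not pass. Rps9, which takes part in decoding accuracy and has no copy, had 373, 534 and 500 counts under vehicle and 2461, 524 and 789 with B-LGND2. B-LGND2 library 1 was high and the groups overlapped, with a log2 fold change of 1.22 (SE 0.41, adjusted p = 0.0919 by edgeR). Rpl10, which joins the large subunit late in its maturation, had 20, 27 and 28 against 5, 5 and 18 counts, a log2 fold change of −1.44 (SE 0.61, adjusted p = 0.165 by edgeR). Summed with its copies its log2 fold change was 1.43 (adjusted p = 0.129 by edgeR), again with the opposite sign.

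Summed with copies, 13 of 78 members rose with B-LGND2 (16.7%) and none fell, where 3.03% of all genes in that fit were called higher and 2.56% lower. The sign was higher for 71 of 78 and the median log2 fold change was 0.78, with 0.73 in the large and 0.93 in the small subunit. Of the 78, 40 (51.3%) had every B-LGND2 library above every vehicle library, against 16.2% of all genes. At an unadjusted p under 0.05, 45 were higher and 1 lower, against 12.8% and 10.9% of all genes. DESeq2 called 22 higher and 0 lower of the 79 members with an adjusted p, against 4.33% and 3.6% of all such genes. Of the large subunit Rpl13a, Rpl14, Rpl23 and Rpl27a were among those that rose, and of the small subunit Rps16, Rps24, Rps26, Rps27, Rps28, Rps29 and Rpsa.

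Rps24 had the highest summed log2 fold change, with 200, 196 and 280 counts under vehicle and 1681, 547 and 611 with B-LGND2. The libraries did not overlap and B-LGND2 library 1 was far above the other B-LGND2 libraries, with a log2 fold change of 1.89 (SE 0.44, adjusted p = 0.0273 by edgeR), or 1.46 without that library (adjusted p = 0.111 by edgeR). Rps28 had 56, 51 and 57 against 311, 127 and 185, with tight vehicle libraries, and a log2 fold change of 1.78 (SE 0.37, adjusted p = 0.0155 by edgeR). Rps27 had 475, 378 and 598 against 2485, 832 and 2049, a log2 fold change of 1.78 (SE 0.48, adjusted p = 0.0499 by edgeR). The Rps27 call held in only 8 of 18 alternatives. It was lost with DESeq2 size factors, no scaling and the length and GC correction (0.0503, 0.0674 and 0.0857 by edgeR), and in DESeq2 (0.05003). Leaving out normal diet library 2, any high fat vehicle library, or B-LGND2 library 1 or 3 also lost it (0.0655 to 0.185 by edgeR). Rps16, with 7, 19 and 13 against 22, 6 and 21 counts alone, shows how much the copies carry. Its sum was 855, 867 and 1156 against 3885, 1795 and 1867, a log2 fold change of 1.25 (SE 0.32, adjusted p = 0.0363 by edgeR). Rpsa and Rpl13a had summed log2 fold changes of 1.53 and 1.46, Rpl27a of 1.31, Rps29 of 1.36 and Rps26 of 1.33, with adjusted p of 0.0141 to 0.041 by edgeR.

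These calls also rested on single libraries. Without high fat vehicle library 1, 2 or 3 the count of 13 became 1, 0 or 2, and without B-LGND2 library 1 it became 1. It was 19 and 10 without B-LGND2 library 2 or 3, and 29, 10 and 34 without normal diet library 1, 2 or 3, which are not part of this contrast. Of all genes, 0.588%, 0.419% and 0.765% were then called higher without a high fat vehicle library, 0.772%, 3.54% and 1.83% without a B-LGND2 library, and 5.23%, 2.02% and 6.39% without a normal diet library, so the calls over all genes moved with those of the members. The median log2 fold change stayed between 0.72 and 0.90 in these 9 fits, and was 0.58 after the length and GC correction.

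**Figure D4:**
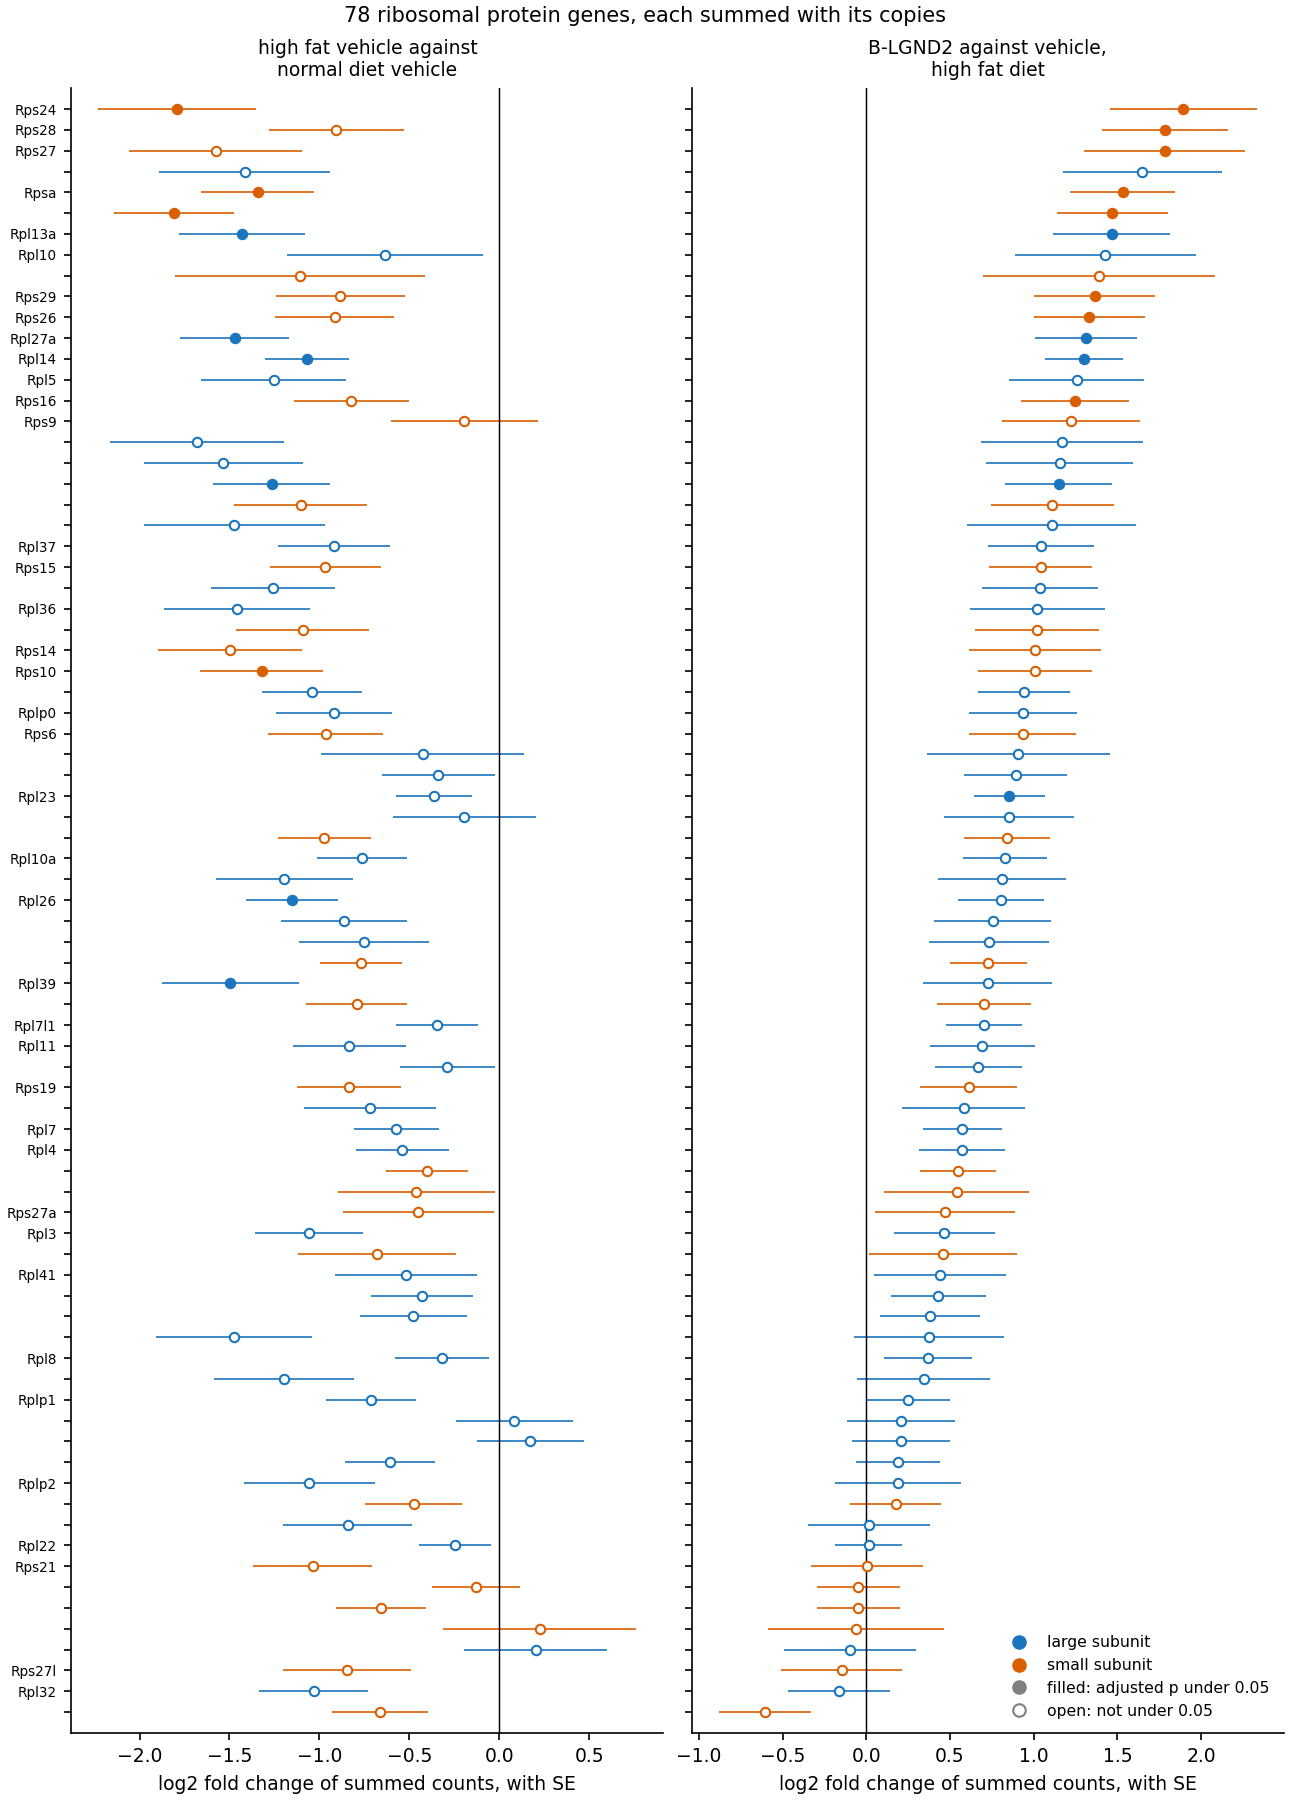
Log2 fold change with SE (x axis) of each of the 78 members summed with its copies (y axis, with some of the genes named), for the diet and for B-LGND2; filled points have an adjusted p under 0.05. The points sit mostly below 0 for the diet, with 74 of 78, and mostly above 0 for B-LGND2, with 71 of 78, and both comparisons share the high fat vehicle libraries.

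The copies were also tested as genes of their own. Of the 84 copies that passed the filter, 12 fell and none rose with the diet, with a median log2 fold change of −1.07. Over all genes tested 1.49% were called lower and 1.5% higher. With B-LGND2, 16 rose and 1, Gm11955, fell, with a median of 1.04, against 3.07% of all genes called higher and 2.56% lower. Gm11478, the main copy of Rpl13a, had 1970, 2419 and 7669 counts on the normal diet, 1281, 1305 and 1663 on the high fat diet and 6500, 3608 and 3169 with B-LGND2. The high fat vehicle libraries were lowest, and the log2 fold changes were −1.47 and 1.50 (SE 0.36 for both, adjusted p = 0.0393 and 0.0271 by edgeR). Rps16-ps2 had 848, 848 and 1143 under vehicle against 3863, 1789 and 1846 with B-LGND2, a log2 fold change of 1.25 (SE 0.32, adjusted p = 0.0366 by edgeR). Rpl10a-ps1 had 1261, 1496 and 1881 against 4668, 2518 and 2232 and did not pass (log2 fold change 0.88, adjusted p = 0.0519 by edgeR). For the last, the member went to the other side of 0. Rpl10a had 73, 75 and 122 counts under vehicle and 44, 59 and 51 with B-LGND2, a log2 fold change of −0.87 (adjusted p = 0.143 by edgeR).

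Of the 49 members tested together with their most counted copy, 17 had the opposite sign to that copy for the diet and 25 for B-LGND2. The share of a sum that was filed under the member itself was 30.7% to 34.1% in the high fat vehicle libraries, 23.2% to 31.1% on the normal diet and 23.5% to 25.2% with B-LGND2. Thus the split between members and copies moved with the groups as well, and its part in the fold changes of members alone was not tested.

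The members that held nearly all of their summed counts give a view that depends little on copies. A bound of 90% of the sum, set after the values were seen, took in 15 genes, of which 13 were tested. Among the 15 were Rpl22, Rpl23, Rpl27, Rpl32, Rpl39l, Rpl3l, Rpl41, Rpl8, Rplp1, Rplp2, Rps15a, Rps3, Rps3a1 and Rps9. For the diet 12 of the 13 were on the lower side, with a median log2 fold change of −0.47, a range of −1.06 to 0.23, and none called. With B-LGND2, 10 were on the higher side, with a median of 0.25, a range of −0.16 to 1.22, and Rpl23 called. Of all genes tested, 1.49% were called lower with the diet and 3.07% higher with B-LGND2. At the other end, 26 members held under 10% of their sum. Summed, all 26 were on the lower side for the diet and on the higher side with B-LGND2, with medians of −1.10 and 1.08. Of the 26, 3 were called lower and 7 higher, against 1.5% and 3.03% of all genes in the summed fit. Alone, 16 of the 26 were tested, 7 were on the higher side and 9 on the lower in each comparison, and the medians were −0.08 and −0.15. The medians were thus nearer to 0 for the genes with few counts in copies than for the sums of the genes with most counts there. This difference was not tested.

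**Figure D5:**
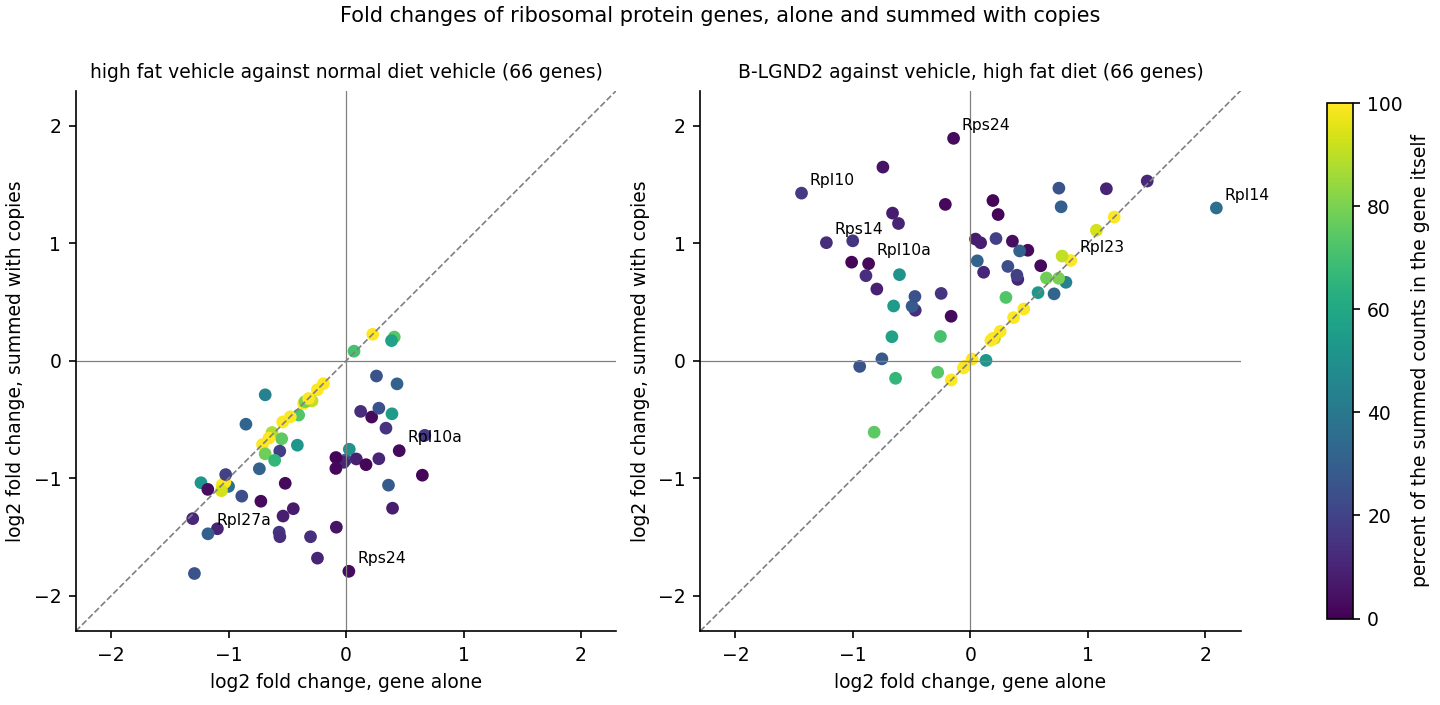
Log2 fold change of each of 66 members alone (x axis) against its sum with copies (y axis), for the diet and for B-LGND2, with colour for the percent of the summed counts held by the member itself. Members that hold most of their sum lie on or near the diagonal. Many members that hold little of it lie off the diagonal, but some, such as Rpsa with B-LGND2, lie close to it. The sign differs for 17 members for the diet and 22 for B-LGND2.

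High fat diet with B-LGND2 against normal diet with vehicle asks whether the treated group differed from the untreated lean one. Alone, 1 member was called higher, Rpl14, and 3 lower, Rps14 and Rpl32 among them, where 1.59% of all genes tested were called higher and 1.33% lower. The sign was lower for 46 of 66, with a median log2 fold change of −0.26, or −0.14 without normal diet library 3 and −0.12 after the length and GC correction. Summed, none was called higher and 2 lower, Rpl32 among them, against 1.62% and 1.33% of all genes, and the median was −0.06. Its sign depended on single libraries, with 0.35 without normal diet library 3, 0.06 without B-LGND2 library 2 and −0.26 without normal diet library 1. At an unadjusted p under 0.05, 3 sums were higher, Rpl23, Rps28 and Rps9, and 9 lower, against 10.2% and 9.3% of all genes. DESeq2 called 0 higher and 2 lower, against 2.5% and 2.11% of the genes with an adjusted p. The share of counts in rRNA and the macrophage markers were higher in the B-LGND2 group here too.

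Rps14 had the smallest p, with a log2 fold change of −1.79 (SE 0.32, adjusted p = 0.00831 by edgeR) alone and −0.49 summed (adjusted p = 0.521 by edgeR). Rpl32, a large subunit protein without copies at chr6:115805505-115808747 on the minus strand, had 333, 313 and 797 counts against 190, 202 and 253 with B-LGND2. Here the normal diet libraries spread widely, at 71.3 ± 33.7 CPM against 31.3 ± 10.2, and the log2 fold change was −1.19 (SE 0.31, adjusted p = 0.045 by edgeR). Other gene models overlap about 20% of the exonic bases of Rpl32.

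Rpl14 stood at 1.09 against the normal diet alone (SE 0.27, adjusted p = 0.0382 by edgeR) and at 0.23 summed (adjusted p = 0.617 by edgeR). Its call was lost without any one of normal diet libraries 1 and 2, the high fat vehicle libraries, and B-LGND2 libraries 1 and 3 (adjusted p of 0.0548 to 0.159). Leaving out B-LGND2 library 1 removed all 4 calls alone, with adjusted p of 0.0599 for Rps14 and 0.19 for Rpl32. The Rpl32 call was lost without any one library other than normal diet library 1 and B-LGND2 library 3 (0.0648 to 0.19), and also with no scaling, at a minimum of 50 counts, with only the 2 groups compared, with a replicate block and after the length and GC correction (0.0508 to 0.097 by edgeR). Leaving out normal diet library 1 gave 7 members lower, and 2.44% of all genes. Rpl36 at −1.57 (adjusted p = 0.0919 by edgeR), Rps9 at 1.03 and Rpl11 at 0.68 were the remaining ends of the range.

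Members with known roles of their own were followed whatever their values. The stalk proteins recruit translation factors to the large subunit. Rplp0 stood at 131 ± 65.2, 78.4 ± 5.45 and 105 ± 10 CPM on the normal diet, the high fat diet and B-LGND2 (SD, n = 3), and Rplp1 at 59.7 ± 20, 36.5 ± 3.4 and 43.4 ± 7.91. Rplp2 stood at 6.39 ± 2.11, 3.07 ± 0.318 and 3.53 ± 0.705. All 3 were lowest on the high fat diet with vehicle, by log2 fold changes of −0.74, −0.71 and −1.06 against the normal diet, and none passed (adjusted p of 0.13, 0.113 and 0.106 by edgeR). With B-LGND2 the log2 fold changes were 0.42, 0.25 and 0.19.

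Rps6, whose phosphorylation by S6 kinases is the usual readout of mTORC1, could be tested only as a sum. It had 769, 985 and 1787 summed counts on the normal diet, 548, 534 and 726 on the high fat diet and 1881, 1453 and 523 with B-LGND2. Scaled to library size, B-LGND2 library 3 lay among the vehicle libraries and the other B-LGND2 libraries above them. The log2 fold changes of −0.96 and 0.93 did not pass (adjusted p = 0.0972 and 0.0918 by edgeR). Rpl5 and Rpl11, which form a particle with the 5S rRNA that can bind Mdm2, stood at 0.40 and 0.28 alone for the diet and at −1.25 and −0.83 summed. With B-LGND2 Rpl5 stood at −0.66 alone and 1.26 summed (adjusted p = 0.0771 by edgeR for the sum), and Rpl11 at 0.40 and 0.69.

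Rpl3, which lines the peptidyl transferase centre, stood at 0.36 for the diet and −0.50 with B-LGND2 alone, and at −1.06 and 0.47 summed. Rps19, the gene most often mutated in Diamond-Blackfan anaemia, stood at 0.09 and −0.80 alone and at −0.84 and 0.61 summed. Rps27a, made as a fusion with ubiquitin, had 94 counts in all and stood at 0.39 and −0.65 alone. Rpl41, the shortest ribosomal protein, stood at 9.88 ± 6.68, 6.82 ± 1.46 and 9.35 ± 2.29 CPM. None of these values passed the test. The most counted genes of the large subunit did not pass either. Rpl8 had 1096, 1579 and 2721 counts on the normal diet, 1265, 1497 and 1540 on the high fat diet and 2795, 1441 and 1805 with B-LGND2, with overlap between all groups and log2 fold changes of −0.32 and 0.37. Rpl4 had 1913, 2387 and 2919, then 1339, 1191 and 1491, then 4209, 2239 and 1069, with log2 fold changes of −0.85 and 0.71 (adjusted p = 0.1 and 0.142 by edgeR). Of the paralogs, Rpl7l1 stood at −0.35 for the diet and 0.75 with B-LGND2 (adjusted p = 0.0649 by edgeR), beside 0.34 and −0.25 for Rpl7 alone. Rps27l stood at −0.61 and −0.64, and at −1.24 for B-LGND2 against the normal diet (adjusted p = 0.0946 by edgeR). Rpl22 stood at −0.24 and 0.01.

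Genes that work with the ribosomal proteins were read from lists. Over all genes tested, edgeR called 1.5% higher and 1.49% lower with the diet, and 3.07% and 2.56% with B-LGND2. Against the normal diet it called 1.59% and 1.33%. At an unadjusted p under 0.05, 10.6% of all genes were higher and 11.8% lower with the diet. In the fit of the sums 12.8% and 10.9% were so with B-LGND2, and 10.2% and 9.3% against the normal diet. The 4 other ribosome components listed, Fau, Rack1 and Rpl36al among them, had no call in any comparison, in edgeR or in DESeq2, with 0, 0 and 1 at an unadjusted p under 0.05 and medians of −0.35, 0.07 and −0.15. Rack1, a scaffold on the small subunit, stood at 268 ± 117, 227 ± 17.5 and 255 ± 39.8 CPM. Of 22 translation factors whose mRNAs also start with a pyrimidine run, Npm1, a nucleolar chaperone, fell with the diet (−1.03, SE 0.25, adjusted p = 0.0390 by edgeR). Eif4a2, an initiation helicase, and Eif3e fell with B-LGND2, at −1.01 and −1.44 (adjusted p = 0.0239 and 0.0425 by edgeR), and Eif4a2 was lower at −0.99 in B-LGND2 against the normal diet. The medians of this list were 0.04, −0.21 and −0.29. Of 29 ribosome biogenesis genes tested, Npm1 fell with the diet, and Pes1, needed for large subunit maturation, rose with B-LGND2 (1.28, SE 0.29, adjusted p = 0.0209 by edgeR) and was higher at 1.20 against the normal diet. Of 20 genes tested of the mTORC1 and S6 kinase pathway none was called, with 4, 3 and 5 at an unadjusted p under 0.05 and 1 in each comparison by DESeq2 (Eif4ebp2, Rps6ka1 and Larp1, all higher), and medians of 0.01, −0.01 and 0.05.

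The mitochondrial ribosomal proteins, nuclear genes of the other ribosome of the cell, gave 73 tested genes. Mrps30 fell with the diet (−0.93, adjusted p = 0.0382 by edgeR), and with B-LGND2 Mrpl41, Mrpl20, Mrpl15 and Mrpl12 rose by 1.47, 1.22, 1.03 and 1.53 on the log2 scale while Mrpl24, Mrps34 and Mrps5 fell, at −1.16, −1.17 and −0.92. Mrpl24 was also lower at −1.13 against the normal diet. Their medians were −0.62, 0.40 and −0.27, and 40, 24 and 14 had an unadjusted p under 0.05. Of all genes tested, 10.6% were higher and 11.8% lower at that threshold with the diet. In the fit of the sums the shares were 12.8% and 10.9% with B-LGND2, and 10.2% and 9.3% against the normal diet. DESeq2 called 13, 11 and 1 of the list. It called 3.46% of all genes higher and 4.98% lower with the diet. For the sums these shares were 4.33% and 3.6% with B-LGND2, and 2.5% and 2.11% against the normal diet. Named ribosomal protein pseudogenes, which overlap the copies above, gave 33 tested of 294. Of these 6 fell with the diet and 6 rose with B-LGND2, with medians of −1.12 and 1.15. Of all genes, 1.49% were called lower with the diet and 3.07% higher with B-LGND2. None was called against the normal diet, where 2 had an unadjusted p under 0.05 and DESeq2 called 0. Of the snoRNA host transcripts, noncoding RNAs that also start with pyrimidines, 6 were tested and none was called, with 0, 1 and 0 at an unadjusted p under 0.05 and 0 by DESeq2. Of the nuclear retained and mitochondrially encoded RNAs, 17 were tested. Among them mt-Tq and mt-Tc rose with the diet, and mt-Tq, mt-Tp and mt-Tc fell with B-LGND2.

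Markers of other liver cells were counted beside these results. Of all genes tested, edgeR called 3.07% higher with B-LGND2 and 1.59% higher in that group against the normal diet. With B-LGND2 the endothelial marker Kdr rose, and Lyve1, Cdh5 and Stab2 were higher than on the normal diet, and the 6 endothelial markers summed to 121 to 169, 102 to 141 and 186 to 208 CPM in the 3 groups. Lymphocyte markers summed to 4.80 to 6.39, 4.95 to 5.71 and 7.06 to 10.3 CPM and neutrophil markers to 2.18 to 10.8, 3.01 to 4.74 and 5.45 to 9.66, with 1 neutrophil marker at 0 throughout. Of the hepatocyte markers, Apoa1 rose with B-LGND2 (1.40, SE 0.34, adjusted p = 0.0283 by edgeR). Of the stellate, cholangiocyte and erythroid lists no marker was called by edgeR. There 1 to 3, 0 to 1 and 2 markers had an unadjusted p under 0.05, and DESeq2 called 1 of them, the erythroid marker Hbb-bt, lower with the diet and higher with B-LGND2. The part of these cells in the results on ribosomal proteins was not tested.

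The start of the mRNA can be read for the members with a RefSeq start site on GRCm38.p6. Rpl14 and Rpl27a are shown because they were called alone and a run of at least 5 pyrimidines begins at their annotated start. Their runs are therefore not a result about the called members. Each line holds 30 bases around the annotated start, at chr9:120571507-120571536 on the plus strand for Rpl14 and chr7:109519185-109519214 on the plus strand for Rpl27a, with the pyrimidine run from the start in capitals.
Rpl14: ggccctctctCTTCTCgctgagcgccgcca
Rpl27a: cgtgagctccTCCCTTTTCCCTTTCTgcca
The run is 6 bases in Rpl14 and 16 in Rpl27a. Of 63 members matched, 16 (25.4%) had at least 5 pyrimidines (C or T, on the gene's strand) from the annotated start, against 1426 of 27025 genes (5.28%). A match describes the annotated start, and no match says only that the run is not at that base.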

How the data were processed

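The authors deposited raw counts of reads per gene, as whole numbers and without any normalization, for 45513 Ensembl gene IDs in 9 libraries of mouse liver, 3 per group. The submitters' processing notes list HTSeq 0.6.1p1, TopHat2 2.0.13, DESeq2 1.6.3, Bowtie2 2.2.4 and SAMtools 0.1.19, with the build GRCm38.p3. Not given in the sources used here are the annotation release, the strand setting and how reads on several genes were assigned. Per the labels' protocols, poly(A) RNA was made into libraries with 16 amplification cycles, so counts are not molecules. No line of the table holds unassigned reads. Columns were matched to libraries by their names, and groups came from the labels.

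Symbols, biotypes, coordinates and transcripts came from GENCODE M21 on GRCm38 (44585 IDs matched, 928 did not), and start sites from RefSeq. Counts were filtered with filterByExpr of edgeR 4.0.16 (minimum count 10, 12102 genes left), scaled by the trimmed mean of M-values (TMM) and fitted in R 4.3.3 by 1 quasi-likelihood model over the 3 groups with 6 residual degrees of freedom. Contrasts were two-sided, with Benjamini-Hochberg adjustment over all genes and a threshold of 0.05. The SE of a fold change was taken from its F statistic. The script was tested on simulated data. Spread is between 3 mice per group, and an exact permutation test of 3 against 3 cannot go below 0.1, so none was run. In the sums, 12030 genes were tested. Copies were assigned to the member that shares the most 50-base windows of its principal mRNA. Summing and its bounds were chosen after the data were seen, and no p was computed over the members as a list.

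Members and lists were chosen with earlier results of these data known. Named members were up to 8 called with the smallest p per contrast and direction, the 3 highest and 3 lowest log2 fold changes, a set of members with roles of their own, the paralogs with their parents, and the 5 highest and 5 lowest levels per length. From each list up to 4 called genes were named. Some genes that the rule takes in are not reported here. Other named genes were chosen after their values were seen. Alternatives were other scalings, filters, DESeq2 1.42.0, only the 2 groups compared, a replicate block, a correction for length and GC content, named pseudogenes and leaving out each library.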

Additional observations from a re-analysis of the deposited data

How the results depend on the processing

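Counts of called members moved with most settings. For members alone, the 1 lower with the diet became 2 with DESeq2 size factors, 0 with no scaling beyond the library total, 10 with no filter, 7 in DESeq2, 7 with named pseudogenes added, and 0 to 15 with a library left out. The 4 higher with B-LGND2 became 7 with no filter, 7 with named pseudogenes and 1 to 5 with a library left out. The 1 lower with B-LGND2 became 2 with no scaling, 2 with no filter, 2 in DESeq2, 2 with only the 2 groups compared, 4 after the length and GC correction (Rps14, Rps2 and Rpl36 among them) and 0 to 2 with a library left out. Against the normal diet, the 1 higher became 2 with no filter, 0 with only the 2 groups compared, 0 with named pseudogenes and 0 to 1 with a library left out, and the 3 lower became 6 with no filter and 0 to 7 with a library left out. For the sums, the 10 lower with the diet became 42 with no filter, 31 in DESeq2, 3 with only the 2 groups compared, 5 after the length and GC correction and 0 to 46 with a library left out. The 13 higher with B-LGND2 became 35 with no filter, 22 in DESeq2, 36 with only the 2 groups compared and 0 to 34 with a library left out, and the 0 lower became 1 after the length and GC correction. Against the normal diet, the 0 sums higher became 1 with no filter and 0 to 2 with a library left out. The 2 sums lower became 1 with no scaling, 4 with no filter, 1 with a minimum of 50 counts, 0 with only the 2 groups compared, 1 after the length and GC correction and 0 to 5 with a library left out. Calls over all genes moved with the settings as well. In DESeq2, 4.98% of all genes as deposited were lower with the diet, against 1.49% in edgeR. In the summed fit, 4.33% were higher with B-LGND2 in DESeq2, against 3.03% in edgeR. The counts above are therefore not read as results about the members. The cause of these shifts was not tested.

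With named pseudogenes added, the members' share of counts was 0.424% on the normal diet, 0.279% on the high fat diet and 0.430% with B-LGND2. Without rRNA and mitochondrial counts in the total, it was 0.160% on the high fat diet and 0.207% with B-LGND2. Signs reversed with named pseudogenes for Rpl10a with the diet (−0.76), Rpl10 with the diet (−0.63) and Rpl10 with B-LGND2 (1.43), and for Rpl11 against the normal diet without B-LGND2 library 1 (−0.0159, in a range of −0.0159 to 0.97 with a library left out). None of these 4 values was called.

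The shared replicate numbers gave no sign that the mice were paired. The deviations of the 9 same-numbered pairs correlated at −0.19 to 0.12, and those of differently numbered pairs at −0.13 to 0.18. Such correlations over all genes cannot exclude a pairing. With the numbers as a replicate block, alone 0 members were lower with the diet, 0 lower and 3 higher with B-LGND2, and 1 higher and 2 lower against the normal diet. Of the sums 4 were lower with the diet, 14 higher with B-LGND2 and 1 lower against the normal diet. No libraries of a group agreed within sampling noise, with a chi-square per degree of freedom of at least 11.8. Depth limits the 22 members with under 100 counts, most of which could not be tested alone.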
